A study of Homo sapiens with 27 samples.

Results

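The genes described here encode the 7 subunits of the cleavage stimulation factor (CstF) and cleavage factor I (CFIm): CSTF1, CSTF2, CSTF2T and CSTF3 of CstF, and NUDT21, CPSF6 and CPSF7 of CFIm. They were taken by gene symbol, and all 7 were found among the 20268 genes of the tables. They were examined by poly(A)-ClickSeq (PAC-seq), which reads the junction of a transcript with its poly(A) tail, in 27 libraries of 3 human prostate cancer cell lines. LNCaP depends on hormone for growth, whereas LNCaP95, which was derived from it, and 22Rv1 do not. In every line, 3 libraries were from cells with a control shRNA (CTRL sh) and 3 from cells with each of 2 shRNAs against CPSF1 (CPSF1 sh1, CPSF1 sh2). Every group, the controls included, had been infected with lentivirus, selected with puromycin in repeated rounds and grown for 72 h after seeding at 500000 cells per well, so that each library is a selected population and not a clone. LNCaP and 22Rv1 were kept in RPMI medium with serum, and LNCaP95 in its phenol-red-free form.

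CstF binds GU-rich sequence downstream of a poly(A) site and CFIm binds UGUA upstream of it, and both help the CPSF complex to choose where a transcript is cleaved. CSTF3 is the scaffold of CstF, CSTF2 and its paralog CSTF2T carry the RNA-binding domain, and CSTF1 completes the complex. NUDT21 is the UGUA-binding subunit of CFIm, and CPSF6 and CPSF7 are its larger partners. CSTF3 is also known for a poly(A) site in the third intron of its gene, the use of which gives a short transcript and is subject to feedback from CstF itself.

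Reads were counted in 4 tables by the region in which they end, namely 3′ UTRs, introns, coding sequence (CDS) and a stretch of 10 kb downstream of the gene. Sequences at annotated ends are shown for CSTF3, CSTF2T, CSTF1, CSTF2 and NUDT21, because they show which end each table counts. The ends of CPSF6 and CPSF7 and the CSTF3-208 end are not printed. They are from GRCh37 (hg19), read on the strand of the gene, and capitals mark the polyadenylation hexamer AATAAA or ATTAAA, the last one in the final 50 bases of the transcript. Transcript names are those of Gencode release 44, a later annotation than that of the tables.
CSTF3-201, the full-length end, chr11:33106130-33106159, minus strand: tcctttaaaaAATAAAaggattcagaaaca
CSTF3-202, a short end, chr11:33163011-33163040, minus strand: cttttacaagctgatgattgttgcattttg
CSTF3-203, a short end, chr11:33162512-33162541, minus strand: ttcatgattatggttaggaggaaaatgtta
CSTF2T-201, chr10:53455246-53455275, minus strand: tgcagaaAATAAAgatacaattaaggctga
CSTF1-206, end counted in the 3′ UTR table, chr20:54979489-54979518, plus strand: atccgatctaATTAAAttaggtcagcctgc
CSTF1-201, end counted in the 10 kb table, chr20:54981389-54981418, plus strand: gatttctgaAATAAActttatatacaatga
CSTF2-204, end counted in the 3′ UTR table, chrX:100095883-100095912, plus strand: gacttgaAATAAActttgaacacaatttta
CSTF2-201, end counted in the 10 kb table, chrX:100096480-100096509, plus strand: aagatgaAATAAAaacagaaatcaaatgaa
NUDT21-201, chr16:56463045-56463074, minus strand: tcatttcAATAAAaaatatttgaaagagaa

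The full-length CSTF3 end has AATAAA, whereas neither hexamer was found in the last 50 bases of the short ends. Over the distal 3′ UTR ends of all genes, AATAAA was in the last 50 bases of 59.4% and ATTAAA without AATAAA in a further 13.5% (sense strand). That count takes the most distal end of each gene, whereas the short CSTF3 ends lie inside the gene. For CSTF3 the most distal end is that of CSTF3-208, a transcript subject to nonsense-mediated decay, and it has neither hexamer. Both short CSTF3 ends fall in features of the 3′ UTR table (33162212 to 33163504), so reads that end there are counted in that table and not as intron. Whether the known intronic site is one of these ends was not tested. The 3′ UTR row of CSTF3 also holds the full-length end (33105830 to 33106632) and the end of a transcript subject to nonsense-mediated decay (33098434 to 33098996). The 10 kb region of CSTF3 therefore begins 7696 bases beyond the full-length end, and the stretch between these last 2 3′ UTR features (33098996 to 33105830) is counted as intron. In addition, 257 bases of short-transcript coding exon lie in both the 3′ UTR and the CDS features, and a read ending there could be counted in each.

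**Figure D1:**
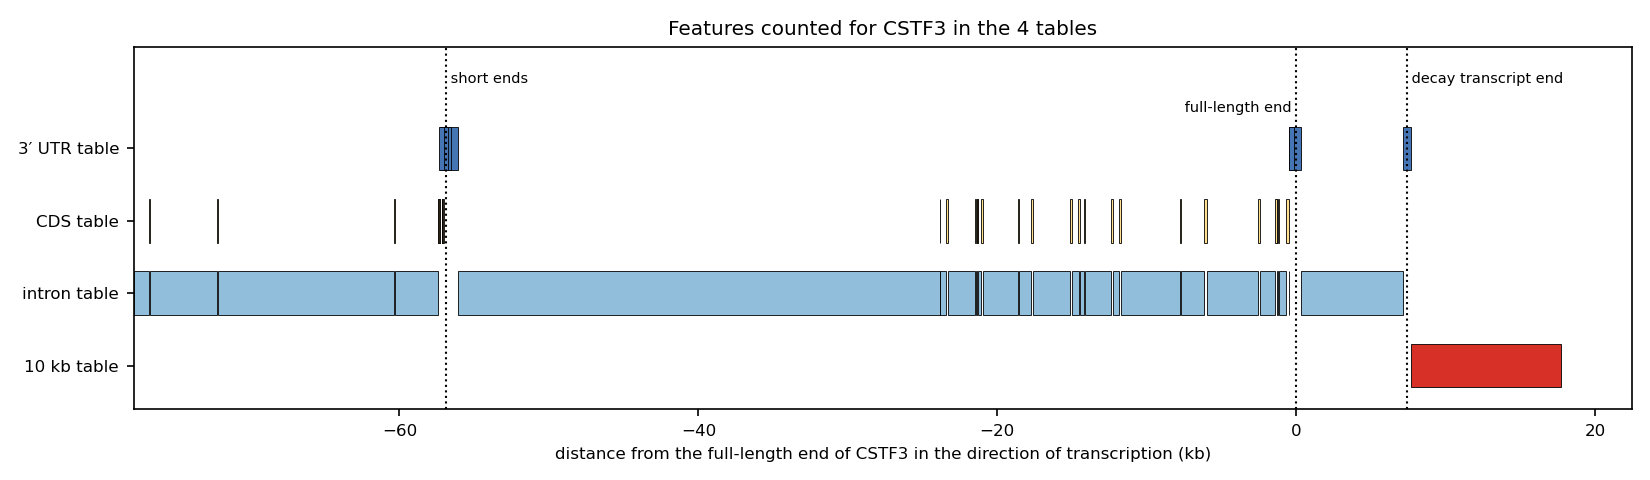
Features counted for CSTF3 in the 4 tables (rows), by distance in kb from the full-length end in the direction of transcription, with dotted lines at 3 annotated ends. The 10 kb region starts 7696 bases past the full-length end, and the short ends lie in 3′ UTR features inside the gene.

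The libraries held 3452413 to 12425417 reads over the 4 tables and 170330 to 728430 in the 10 kb table alone. The 3′ UTR reads of CPSF1, the targeted gene, were lower with knockdown, by log2 fold changes of -1.19 ± 0.17 (SE) in LNCaP, -1.05 ± 0.18 in LNCaP95 and -0.73 ± 0.14 in 22Rv1. All 9 luminal prostate markers examined were detected in every library. The summed level of 5 basal, blood and fibroblast markers was 3.77 to 27.9 CPM. Of these, the basal keratin KRT5 was at 0 in 18 libraries, COL3A1 in 5 and PTPRC in 1. Basal TP63 (0.56 to 5.45 CPM) and fibroblast COL1A1 (2.61 to 26.2 CPM) were detected in every library. Summed luminal markers were at 3975 to 4485 CPM in LNCaP controls and 3147 to 3604 with CPSF1 sh, at 6889 to 7047 and 4796 to 5445 in LNCaP95, and at 2690 to 2984 and 2951 to 3072 for 22Rv1. Their part in the results was not tested. The share of all reads that fell in 10 kb regions went from 4.88% ± 0.09 (SD, n = 3) in LNCaP controls to 6.28% ± 0.67 (n = 6) with knockdown. The corresponding shares were 3.62% ± 0.13 and 6.01% ± 0.72 for LNCaP95 and 4.66% ± 0.25 and 5.87% ± 0.34 for 22Rv1. These shares are described, not tested.

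To determine how CPSF1 knockdown changed these genes, 3 control and 6 knockdown libraries were compared in each line with the quasi-likelihood test of edgeR, with Benjamini-Hochberg adjustment over all genes tested and a threshold of 0.05. Values are in CPM, reads scaled to a common library size within the same table, and genes with a mean above 2 CPM were tested. The SE of a log2 change was derived from the test, as its absolute size over the square root of the F statistic. It is approximate where counts are near 0. Adjusted p-values measure the spread between these libraries, which are numbered BR1 to BR3 with no word on separate infections and may share technical error. In bulk RNA, fewer cells with a transcript and less of it per cell cannot be told apart. All 7 genes passed this filter in the 3′ UTR and 10 kb tables and in the sum of the 4 tables. CSTF2T, an intronless gene (its intron row is 52 bases and held 0 reads in every library), was left out of the intron test. CSTF3 alone could be tested in CDS, since the other 6 had at most 8 CDS reads in any library.

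The scaffold gene CSTF3 gained reads downstream in all 3 lines. Its 10 kb region (chr11:33088435-33098434, hg19) held 2, 0 and 2 reads in the LNCaP controls, 27, 18 and 48 with CPSF1 sh1 and 36, 15 and 44 with CPSF1 sh2. In LNCaP95 the controls held 0, 1 and 1 reads, CPSF1 sh1 36, 54 and 24, and CPSF1 sh2 48, 59 and 49. In 22Rv1 the controls held 0, 2 and 0 reads, CPSF1 sh1 35, 24 and 40, and CPSF1 sh2 90, 66 and 77. The groups did not overlap in any line, and the control libraries were at or near 0 throughout. Such a separation, with 6 knockdown above 3 control libraries, was seen in 10.1% of all 10 kb regions tested in LNCaP, 17.3% in LNCaP95 and 11.2% in 22Rv1. In 22Rv1 the 3 CPSF1 sh2 libraries (109 to 115 CPM) lay above the 3 CPSF1 sh1 libraries (56 to 65.1 CPM).

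The fitted log2 fold change of CSTF3 in the 10 kb table was 3.99 ± 0.58 in LNCaP (adjusted p = 9.08e-09), 5.05 ± 0.66 in LNCaP95 (adjusted p = 9.42e-10) and 4.83 ± 0.64 in 22Rv1 (adjusted p = 1.08e-09). Because the controls held only 4, 2 and 2 reads in all, a ratio of pooled reads with its exact 95% interval is the plainer measure. It was taken per read of the 10 kb table, not per read of the whole library. For LNCaP it was 21 (8.05 to 77.7), for LNCaP95 47.2 (12.9 to 391.5) and for 22Rv1 39.1 (10.7 to 323.8), intervals that cover counting error only. Without 22Rv1 control replicate 2, which held both control reads, the fitted change was 8.53, a value that has no fixed size because the remaining controls are at 0. The median log2 fold change over all 10 kb regions tested was 0.13, 0.22 and 0.19 in the same order. Relative to its own 3′ UTR reads in the same libraries, the 10 kb reads of CSTF3 rose by 3.53 ± 0.67, 5.10 ± 0.75 and 4.78 ± 0.74 on the log2 scale. Among 436 genes that rose in the 10 kb table in all 3 lines, CSTF3 was in place 13 when ordered by the smallest of the 3 changes.

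**Figure D2:**
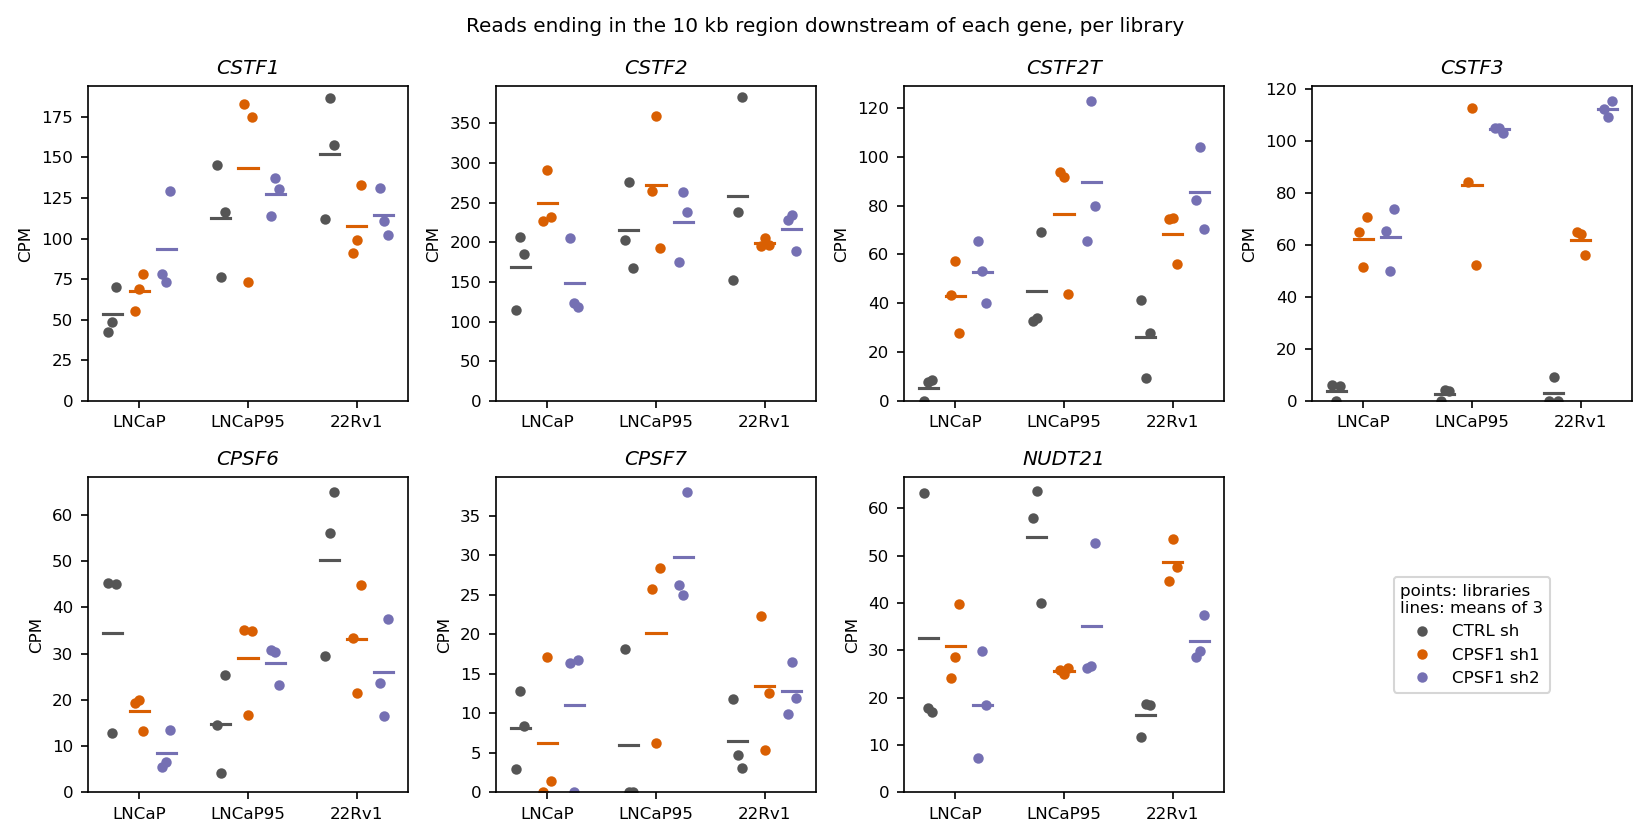
CPM in the 10 kb table (y axis, linear from 0) for each gene, with a point per library and a line at the mean of 3, by cell line and shRNA. For CSTF3 the control libraries lie at 0 to 9.34 CPM and the knockdown libraries at 49.8 to 115 CPM.

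Both CPSF1 shRNAs gave this rise when fitted alone, with log2 fold changes for CPSF1 sh1 and CPSF1 sh2 of 3.98 and 3.95 (LNCaP), 4.85 and 5.22 (LNCaP95) and 4.31 and 5.27 (22Rv1). The CSTF3 10 kb region also holds PIGCP1, a processed pseudogene on the same strand (33097112 to 33098006), to which a read could also belong. It holds 20 stretches with more than 12 adenines in 20 bases, against a median of 16 over all 10 kb regions, and whether reads came from such stretches was not tested. AATAAA occurred 8 times on the sense strand, the same number as the median over all 10 kb regions.

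CSTF3 reads in CDS also rose. They were 32, 23 and 29 in the LNCaP controls, 70, 74 and 110 with CPSF1 sh1 and 102, 37 and 75 with CPSF1 sh2. The LNCaP95 controls held 28, 13 and 14 reads and the knockdown libraries 42 to 67, and in 22Rv1 the controls held 10, 30 and 31 and the knockdown libraries 48 to 106. In CPM the groups did not overlap in any line (5.71%, 10.1% and 3.32% of the CDS rows tested were likewise higher in LNCaP, LNCaP95 and 22Rv1). The log2 fold change was 1.66 ± 0.24 in LNCaP (adjusted p = 5.25e-05), 1.71 ± 0.30 in LNCaP95 (adjusted p = 0.000405) and 1.10 ± 0.26 in 22Rv1 (adjusted p = 0.0396). In 22Rv1 the call held in 1 of 9 fits that left out 1 library (changes of 0.90 to 1.35), and was lost with CPSF1 sh1 alone (0.91) and with library sizes summed over the 4 tables. Over all genes tested in CDS, 7.1%, 12.5% and 1.01% were called. Coding exons of full-length and short CSTF3 share 1 row, and 3 stretches of more than 12 adenines in 20 bases lie in it, so the exon in which these reads end cannot be told.

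Intron reads of CSTF3 rose in LNCaP95, from 38.8 ± 6.34 to 66.3 ± 12.9 CPM, with no overlap between groups (12.2% of intron rows tested were likewise higher). The log2 fold change was 0.78 ± 0.19 (adjusted p = 0.00386), and it was 0.45 ± 0.18 in LNCaP (adjusted p = 0.109) and -0.01 ± 0.17 in 22Rv1 (adjusted p = 0.983). The difference in this change between 22Rv1 and LNCaP95 was -0.77 ± 0.26 (adjusted p = 0.0527) and did not pass. The ratio of intron to 3′ UTR reads of CSTF3 was not called in any line, with 0.71 ± 0.26 in LNCaP95 (adjusted p = 0.074). The intron row of CSTF3 includes the stretch between the full-length end and the distal 3′ UTR feature, and its reads cannot be assigned to single introns.

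CSTF3 reads in 3′ UTR features, the short ends included, rose in LNCaP alone among the 3 fits, by 0.57 ± 0.19 (adjusted p = 0.0474). The controls were at 28.2, 22.7 and 26.6 CPM and the knockdown libraries at 23.1 to 46.7 CPM, so the groups overlapped. The call held in 2 of 9 fits that left out 1 library, with log2 fold changes of 0.48 to 0.66, and a line-by-knockdown difference was not called (LNCaP95 against LNCaP -0.49 ± 0.25, adjusted p = 0.238). Summed over the 4 tables, CSTF3 rose in LNCaP (0.82 ± 0.14, adjusted p = 0.000352) and LNCaP95 (0.60 ± 0.13, adjusted p = 0.00157), and the change in 22Rv1 was 0.35 ± 0.13 (adjusted p = 0.117). Without the CDS table, in which some reads may be counted a second time, the LNCaP and LNCaP95 values were 0.64 and 0.47 and were still called. The 10 kb region made up 0.625%, 0.287% and 0.300% of all CSTF3 reads in controls of LNCaP, LNCaP95 and 22Rv1 and 9.0% ± 1.84, 12.6% ± 4.38 and 11.1% ± 3.63 with knockdown (SD, n = 6).

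**Figure D3:**
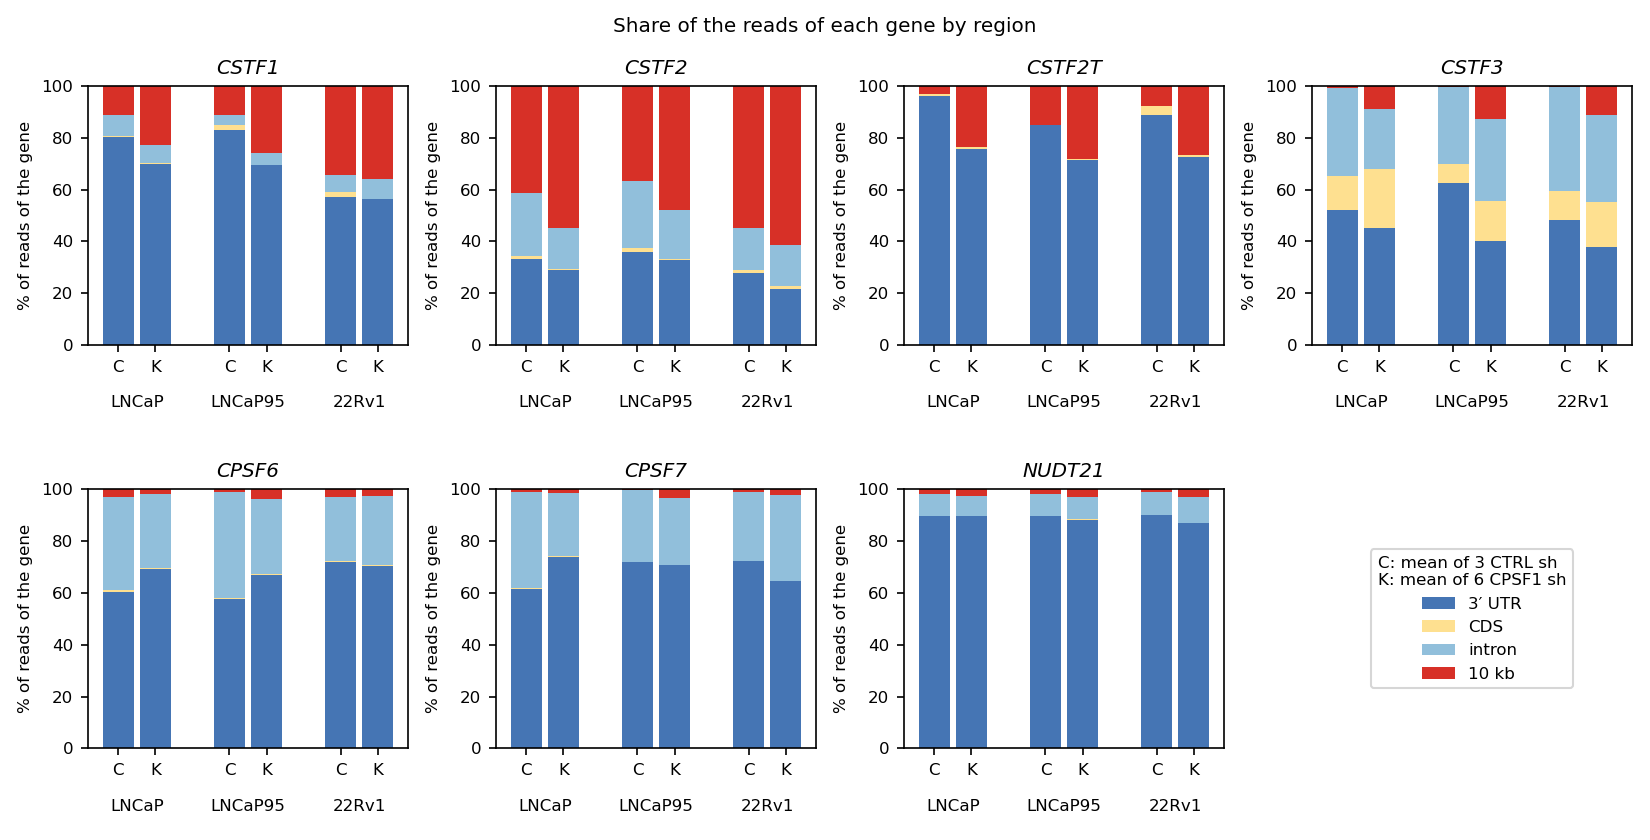
Share of the reads of each gene in each region (stacked bars, % of its reads over the 4 tables), as the mean of 3 control (C) or 6 knockdown (K) libraries per line. The mean 10 kb share is larger with knockdown in each line for every gene except CPSF6, and the share over all reads rises too. The 3′ UTR takes 87.1% to 89.9% of NUDT21 reads in each group.

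The paralog CSTF2T gained downstream reads in LNCaP and 22Rv1. Its 10 kb region (chr10:53444948-53454947) held 0, 3 and 3 reads in the LNCaP controls, 18, 20 and 19 with CPSF1 sh1 and 36, 16 and 24 with CPSF1 sh2. In 22Rv1 the controls held 7, 2 and 9 reads, CPSF1 sh1 40, 28 and 40, and CPSF1 sh2 66, 63 and 47. The groups did not overlap in these lines, as in 10.1% of all 10 kb regions tested in LNCaP and 11.2% in 22Rv1 in the higher direction. In LNCaP95 the controls held 9, 8 and 19 reads and the knockdown libraries 20 to 69, and the groups overlapped once scaled for depth (32.6 to 69.1 CPM against 43.7 to 123 CPM). The log2 fold change was 3.03 ± 0.58 in LNCaP (adjusted p = 1.99e-05), 1.58 ± 0.41 in 22Rv1 (adjusted p = 0.00353) and 0.87 ± 0.39 in LNCaP95 (adjusted p = 0.0822). The ratio of reads per read of the 10 kb table in LNCaP was 9.89 (95% interval 4.42 to 27.4).

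The difference between lines in this CSTF2T change was not called (LNCaP95 against LNCaP -2.12 ± 0.71, adjusted p = 0.0913). Relative to the 3′ UTR, the 10 kb reads of CSTF2T rose by 2.72 ± 0.70 in LNCaP (adjusted p = 0.00988) and 1.71 ± 0.50 in 22Rv1 (adjusted p = 0.0321), and both calls were lost with CPSF1 sh1 alone. The LNCaP call was also lost without control replicate 1 or 2 (lowest change 2.16), and the 22Rv1 call without control replicate 2 or 3 or CPSF1 sh2 replicate 2. In 22Rv1 the call in the 10 kb table was also lost without control replicate 2 and with CPSF1 sh1 alone (1.42, adjusted p = 0.0692). Summed over the tables, CSTF2T rose in LNCaP, from 7.25, 10.4 and 6.25 CPM to 10.6 to 16.4, and in LNCaP95, from 9.97, 14.8 and 8.79 CPM to 13.9 to 23.1. The groups were apart in LNCaP, as in 12.6% of all genes in the higher direction, and overlapped in LNCaP95. These changes were 0.79 ± 0.21 (adjusted p = 0.00974) and 0.74 ± 0.21 (adjusted p = 0.00941), and each was called in 7 of 9 fits that left out 1 library, being lost without control replicate 1 or 3. CSTF2T lies in an intron of PRKG1, which is on the other strand.

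CSTF2, the other RNA-binding subunit, rose in LNCaP95. Summed over the tables it was at 19.2, 22.1 and 16.7 CPM in the controls, 33.8, 45 and 21.1 with CPSF1 sh1 and 29.6, 33.4 and 31.6 with CPSF1 sh2. A single CPSF1 sh1 library lay within the range of the controls. The log2 fold change was 0.75 ± 0.19 (adjusted p = 0.00474), called in all 9 fits that left out 1 library, and 0.73 ± 0.26 in the 3′ UTR table (adjusted p = 0.0414), called in 2 of 9. In LNCaP the summed change was 0.34 ± 0.15 (adjusted p = 0.0985) and in 22Rv1 0.04 ± 0.14 (adjusted p = 0.901). For CSTF2 the 10 kb region, which begins 288 bases short of the newer annotated end shown above, held 36.5% ± 3.35 to 54.6% ± 10.3 of its reads in the controls of the 3 lines. That newer end is of a protein-coding transcript. In the newer annotation, the CSTF2 end shown for the 3′ UTR table is of a transcript subject to nonsense-mediated decay. Features of that table end at 100096207, 100096212 and 100096221, the extension of 300 bases included, so its reads need not be of that transcript.

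CSTF1, the WD-repeat subunit of CstF, was not called in any table or line. Its summed reads changed by 0.15 ± 0.13 in LNCaP, -0.06 ± 0.13 in LNCaP95 and -0.05 ± 0.15 in 22Rv1. Its 10 kb region also holds the newer annotated end, 1600 bases beyond the start of that region, and reaches into CASS4 on the same strand. That newer end is of a protein-coding transcript. In the newer annotation, the CSTF1 end shown for the 3′ UTR table is of a transcript subject to nonsense-mediated decay. The CSTF1 feature of that table (54978784 to 54979818) starts next to the end of its CDS features (54978780), so its reads need not be of that transcript. The region took 8.64% to 15.4% of CSTF1 reads in LNCaP controls and 14.4% to 37.6% with knockdown, 7.29% to 14.2% and 14.2% to 33.3% in LNCaP95, and 31.2% to 38% and 30.8% to 40.2% in 22Rv1. The ratio of its 10 kb to its 3′ UTR reads, each scaled to its own table, was not called (0.71 ± 0.43, 0.47 ± 0.39 and -0.53 ± 0.34).

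NUDT21, the UGUA-binding subunit of CFIm, fell in LNCaP and LNCaP95. In LNCaP its 3′ UTR reads were 126, 153 and 143 CPM in the controls, 109, 102 and 101 with CPSF1 sh1 and 126, 95.1 and 102 with CPSF1 sh2. In LNCaP95 they were 137, 148 and 152 CPM in the controls, 104, 127 and 121 with CPSF1 sh1 and 101, 99.2 and 109 with CPSF1 sh2. The groups overlapped at a single library in LNCaP and did not overlap in LNCaP95, a separation that 14.2% of all 3′ UTR rows tested showed in the lower direction. The log2 fold change was -0.41 ± 0.13 in LNCaP (adjusted p = 0.0316) and -0.40 ± 0.13 in LNCaP95 (adjusted p = 0.0227). The first was called in 4 of 9 fits that left out 1 library (-0.48 to -0.34), and the second in 6 of 9 (-0.45 to -0.37), being lost without control replicate 2 or 3 or CPSF1 sh2 replicate 2.

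In 22Rv1 the NUDT21 controls spread widely, at 100, 160 and 160 CPM, around knockdown libraries of 113 to 161 CPM, and the change was -0.01 ± 0.16 (adjusted p = 0.986). The lowest of these controls was also the shallowest library, with 1725670 reads in the 3′ UTR table. A difference between lines in the NUDT21 change was not called (22Rv1 against LNCaP95 0.41 ± 0.19, adjusted p = 0.18). Summed over the tables NUDT21 changed by -0.33 ± 0.12 in LNCaP (adjusted p = 0.0398) and -0.49 ± 0.12 in LNCaP95 (adjusted p = 0.00322). The second was called in all 9 fits that left out 1 library, and the first in 4 of 9. In the 22Rv1 10 kb table, NUDT21 held 2, 4 and 6 reads in the controls and 18 to 34 with knockdown, a log2 fold change of 1.23 ± 0.50 (adjusted p = 0.107).

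**Figure D4:**
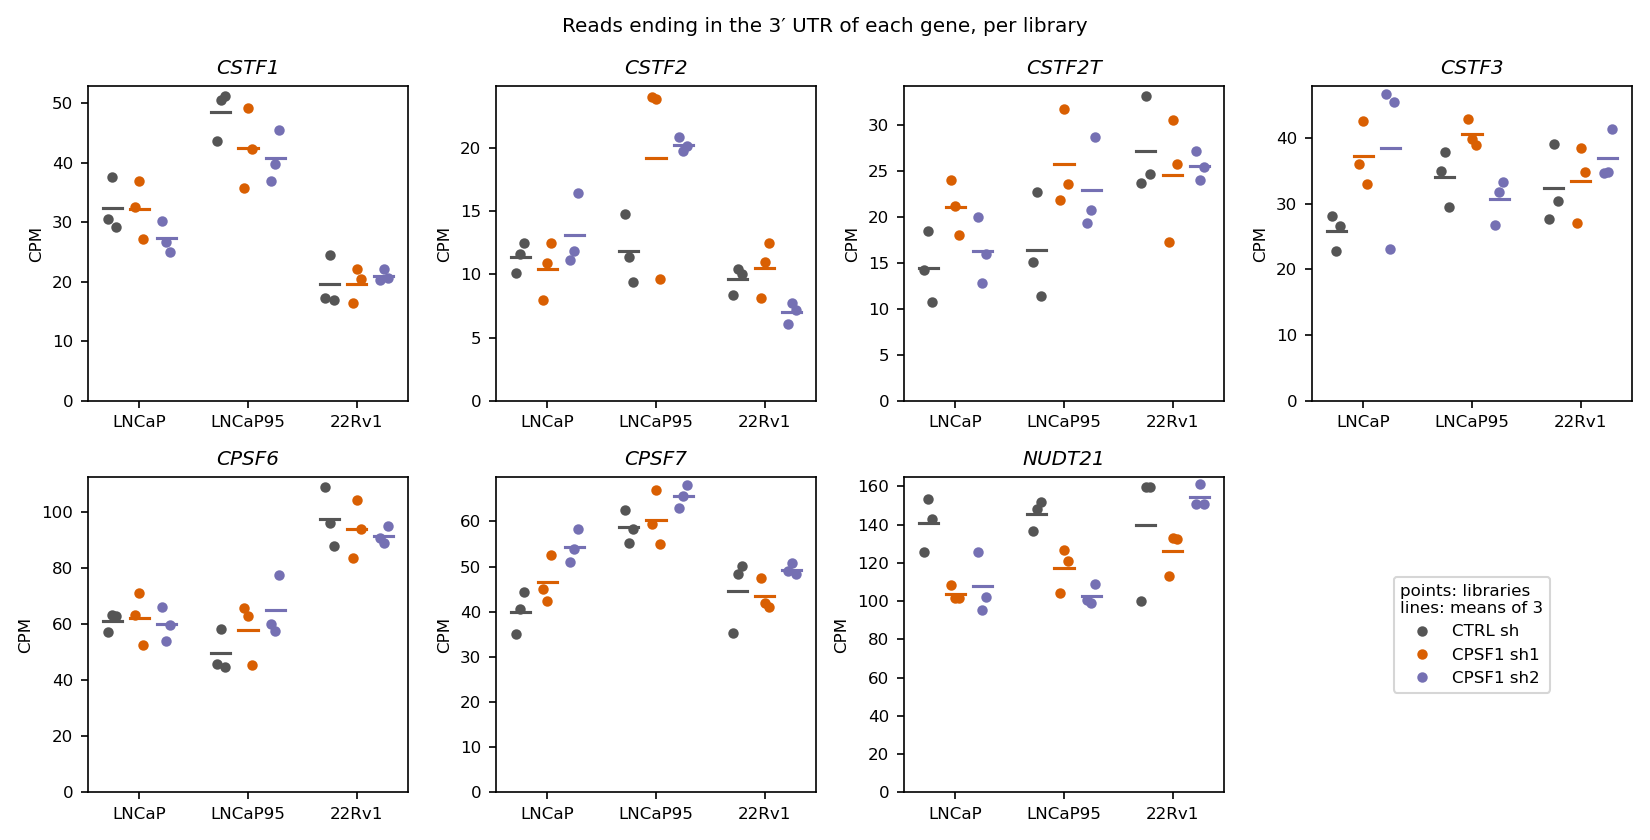
CPM in the 3′ UTR table (y axis, linear from 0) for each gene, with a point per library and a line at the mean of 3, by cell line and shRNA. NUDT21 lies lower with knockdown in LNCaP and LNCaP95, and the 22Rv1 controls spread from 100 to 160 CPM.

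Of the larger CFIm subunits, CPSF6 had fewer intron reads in LNCaP95, 94.5, 89.2 and 69 CPM in the controls in descending order and 54.2 to 70 with knockdown, so that the groups overlapped at a single library. The log2 fold change was -0.45 ± 0.16 (adjusted p = 0.0377), and the ratio of its intron to its 3′ UTR reads fell by 0.75 ± 0.22 (adjusted p = 0.0239). The intron call held in 4 of 9 fits that left out 1 library (-0.58 to -0.36) and the ratio in 6 of 9, not without control replicate 2 or 3 or CPSF1 sh2 replicate 3, and neither held with CPSF1 sh1 or CPSF1 sh2 alone. CPSF6 introns took 41.0% ± 4.47 of its reads in LNCaP95 controls and 29.0% ± 4.73 with knockdown, 36.0% ± 1.08 and 28.8% ± 6.82 in LNCaP, and 24.9% ± 1.80 and 26.6% ± 1.59 in 22Rv1. CPSF7 was called in the 10 kb table of LNCaP95, where the controls held 5, 0 and 0 reads and the knockdown libraries 3 to 18 (1.93 ± 0.76, adjusted p = 0.0459). That call held in 2 of 9 fits that left out 1 library (1.35 to 6.41, the highest without control replicate 1, which held all control reads, so that this value has no fixed size), and not with DESeq2. The levels of CPSF6 and CPSF7 summed over the tables were not called in any line, with changes from -0.14 to 0.15.

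Counted over the 7 genes, 2 were called in the 3′ UTR table of LNCaP (18.3% of all genes tested), 2 in LNCaP95 (30.5%) and 0 in 22Rv1 (1.47%). Of the 6 tested in introns 0 were called in LNCaP (14.3%), 2 in LNCaP95 (23.8%) and 0 in 22Rv1 (4.37%), and 2, 2 and 2 of 7 were called in the 10 kb table, each higher (14.7%, 27.7% and 9.99% of all genes were called, and 9.52%, 17.6% and 7.26% called higher). In summed reads 3, 4 and 0 were called (27.5%, 34.3% and 7.57%). For the ratio to 3′ UTR reads, 0, 1 and 0 of 6 were called for introns (3.69%, 14.1% and 0.422%) and 2, 1 and 2 of 7 for the 10 kb region (10.3%, 28% and 7.45%, or 8.39%, 21.2% and 6.65% in the higher direction). Where edgeR called 0, the genes at an unadjusted p under 0.05 numbered 0 for 3′ UTRs of 22Rv1, 1 (CSTF3) in LNCaP introns, 0 in 22Rv1 introns, 1 (CSTF3) in summed reads of 22Rv1, and 1 (CPSF7) and 0 for the intron ratio of LNCaP and 22Rv1. DESeq2 also called 0 in the 3′ UTR, intron and summed comparisons among these. The median log2 fold change of the 7 genes in summed reads was 0.15, 0.02 and 0.04, against 0.02, 0.01 and -0.00 over all genes tested.

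**Figure D5:**
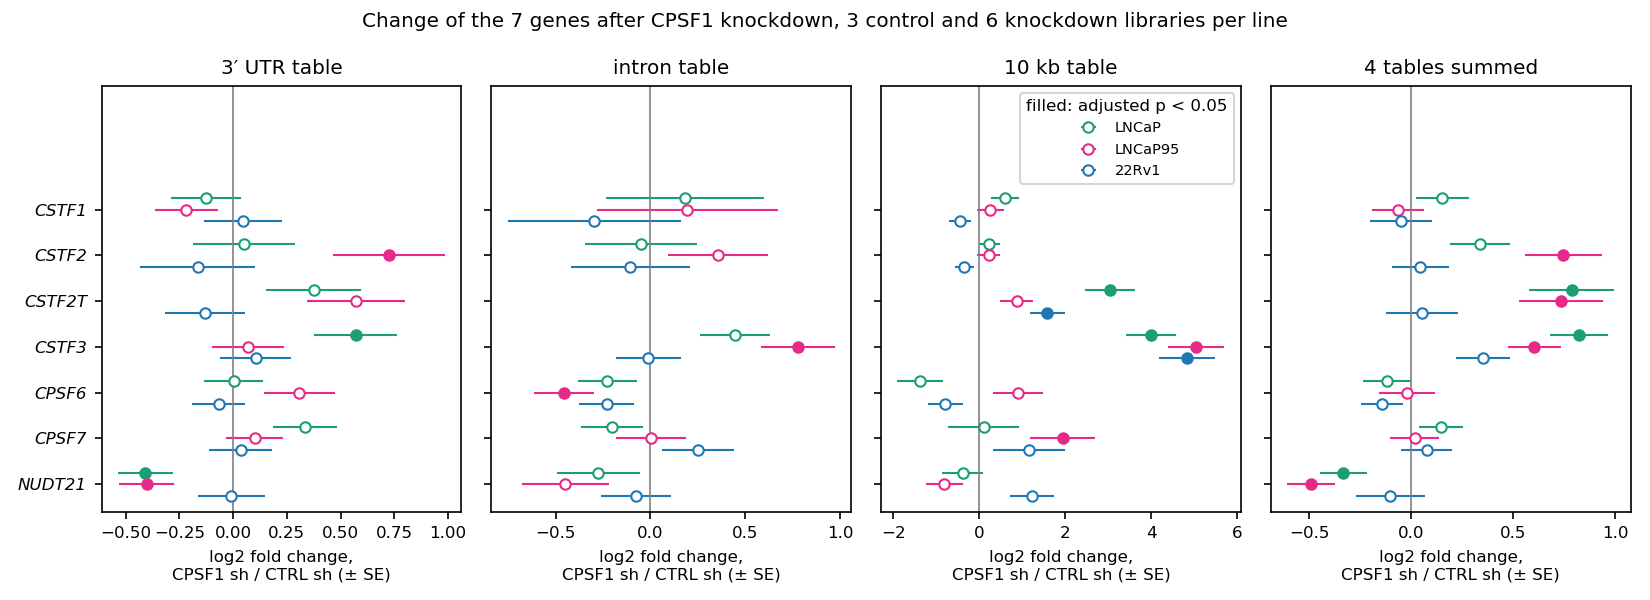
Log2 fold change with knockdown (x axis, bars ± SE) for each gene in 3 tables and in their sum with CDS, with filled points where the adjusted p was under 0.05, by line. CSTF3 lies at 3.99 to 5.05 in the 10 kb table, and the called changes in summed reads of the 7 genes lie between -0.49 and 0.82.

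The scaling used above was within each table, which removes a rise common to all 10 kb regions. A second scaling took library sizes summed over the 4 tables, together with the scaling factors of the 3′ UTR table in place of each table's own. The median over all 10 kb regions was then 0.62, 1.11 and 0.73 in LNCaP, LNCaP95 and 22Rv1, a shift of 0.49, 0.89 and 0.54. CSTF3 then rose by 4.47, 5.91 and 5.38, and CSTF2T by 3.53, 1.78 and 2.12, each called. On this scale CSTF1 and CSTF2 were also called higher in LNCaP (1.12 and 0.71) and LNCaP95 (1.15 and 1.13), and NUDT21 in 22Rv1 (1.78). CPSF6 (1.79) and CPSF7 (2.83) were called higher in LNCaP95. Of all 10 kb regions called, 94.3%, 95.6% and 97.9% were then higher, against 64.7%, 63.4% and 72.6% with each table scaled to itself. For introns the share called higher went from 60.7%, 54.5% and 60% to 22.5%, 47.9% and 95.5%, with median shifts of -0.28, -0.08 and 0.20. For the 3′ UTR it went from 45%, 50.1% and 46.2% to 49.7%, 36.9% and 21.4%, and for CDS from 53.4%, 60.1% and 56% to 34.1%, 53.2% and 28.6%. The changes called above kept their direction on this scale.

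The lines were then compared without knockdown, in the 9 control libraries scaled together. CSTF2T was higher in 22Rv1, at 15.9 ± 3.16 CPM over the 4 tables, than in LNCaP (8.35 ± 2.28, log2 difference 0.92 ± 0.26, adjusted p = 0.00561) and LNCaP95 (9.88 ± 2.77, 0.69 ± 0.25, adjusted p = 0.0234). The second call was lost without 22Rv1 replicate 2 or LNCaP95 replicate 1 or 3 (lowest 0.54). CPSF6 was higher in 22Rv1 (69.6 ± 4.68 CPM) than in LNCaP95 (44.6 ± 5.87), by 0.64 ± 0.14 (adjusted p = 0.000611), with LNCaP between them (56 ± 3.48). CSTF1 was lower in 22Rv1 (17.7 ± 4.08 CPM) than in LNCaP95 (30 ± 0.60), by -0.74 ± 0.18 (adjusted p = 0.00148), with LNCaP at 22.4 ± 2.79.

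For CSTF2, CSTF3, CPSF7 and NUDT21 no pair of lines was called. NUDT21 was at 86.8 ± 8.39, 83.8 ± 2.74 and 81.9 ± 27.3 CPM in LNCaP, LNCaP95 and 22Rv1. In all, 0 of the 7 were called between LNCaP95 and LNCaP by edgeR (43.9% of all genes, and 2 of the 7 at an unadjusted p under 0.05), 1 between 22Rv1 and LNCaP (53.1%) and 3 between 22Rv1 and LNCaP95 (59.3%). The ratio of intron to 3′ UTR reads differed for CPSF6, lower in 22Rv1 than in LNCaP95 by -1.17 ± 0.27 (adjusted p = 0.00414, 18.5% of genes called in this pair), and for no other gene or pair (8.49% of genes called between 22Rv1 and LNCaP, 7.23% between LNCaP95 and LNCaP). A line and any batch it was handled in cannot be told apart.

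Whether the response to knockdown differed between lines was tested over the 27 libraries. None of the 7 genes was called in the 3′ UTR, intron or 10 kb table for any pair of lines. Of all genes, 9.58%, 5.11% and 10.7% were called in 3′ UTRs, 8.1%, 3.77% and 9.1% in introns and 2.48%, 1% and 4.15% in 10 kb regions, for LNCaP95 against LNCaP, 22Rv1 against LNCaP and 22Rv1 against LNCaP95. At an unadjusted p under 0.05 there were 0, 1 and 3 genes in the 3′ UTR table, 0, 0 and 1 in introns and 2, 2 and 2 in the 10 kb table in the same order. The closest were CSTF3 in introns, given above, CPSF6 in the 10 kb table (LNCaP95 against LNCaP 2.33 ± 0.75, adjusted p = 0.0708) and NUDT21 in the 10 kb table (22Rv1 against LNCaP95 2.03 ± 0.69, adjusted p = 0.0709). Fitted within each line, CPSF6 in the 10 kb table changed by -1.38 ± 0.53 in LNCaP (adjusted p = 0.0614), 0.90 ± 0.59 in LNCaP95 and -0.79 ± 0.41 in 22Rv1, none called. With CPSF1 sh2 alone its fall in LNCaP was called (-1.96, adjusted p = 0.0312).

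Of 15 other cleavage and polyadenylation factors, CPSF1 included, 3 were called in the 3′ UTR table of LNCaP (2 higher, 1 lower), 4 in LNCaP95 (3 higher, 1 lower) and 1 in 22Rv1 (lower). Of all genes tested, 18.3%, 30.5% and 1.47% were called in the same order. The lower call in each line was CPSF1, the targeted gene. PCF11, a termination factor of cleavage factor II, rose in the 3′ UTR table of LNCaP (0.76 ± 0.21, adjusted p = 0.0164) and LNCaP95 (0.92 ± 0.19, adjusted p = 0.00118) and in CDS in all 3 lines (0.84, 0.93 and 0.75). Its intron reads fell in LNCaP95 (-1.52 ± 0.15, adjusted p = 2.16e-08). Summed over the tables, PCF11 rose in LNCaP (0.71 ± 0.12) and 22Rv1 (0.53 ± 0.10) and was not called in LNCaP95 (0.30 ± 0.16, adjusted p = 0.156). WDR33, the hexamer-binding CPSF subunit, rose in the 3′ UTR table of LNCaP (0.57 ± 0.14) and LNCaP95 (1.29 ± 0.19), and the log2 change of its intron to 3′ UTR ratio was -0.89 and -1.81. CPSF2 rose in the 10 kb table of LNCaP (1.32 ± 0.32) and LNCaP95 (1.23 ± 0.44), and PAPOLA, the poly(A) polymerase, in CDS of both (0.51 ± 0.16 and 0.72 ± 0.18). The median 3′ UTR change of the 15 was 0.22, 0.28 and 0.05 in LNCaP, LNCaP95 and 22Rv1, against 0.05, 0.10 and -0.01 for the 7 CstF and CFIm genes.

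The 3′ UTR patterns most like those of the 7 genes were sought by the Pearson correlation of log2 CPM over the 27 libraries, with the mean of each line removed, among 8792 genes. The nearest to CSTF3 were ZNF706 (0.83) and HSPE1 (0.81), to CSTF2T TDP2 (0.85) and EIF3M (0.82), and to NUDT21 SLC16A1 (0.87) and NUDT4 (0.86). For CSTF2 they were EIF5A (0.71) and RP11-1055B8.7 (0.71), and for CSTF1 FAM221A (0.77) and SDHC (0.76). For CPSF6 they were GTF2I (0.76) and DDX5 (0.73), and for CPSF7 ZNF75A (0.74) and CENPL (0.73). Among the 7 genes themselves the highest value was 0.62, between CSTF1 and NUDT21. These values are descriptions, since the libraries share their depth and their knockdown.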

How the data were processed

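PAC-seq libraries of 27 cell populations (3 lines, 3 shRNAs, 3 libraries each) were analysed from gene counts that the authors deposited in 4 tables. Per the submitters' processing notes, HISAT2 2.1.0 and Subread 2.0.3 were used, and per the study's methods poly(A) sites were assigned by their last base, by strand, to regions of Ensembl protein-coding genes (GRCh37), with 3′ UTRs extended by 300 bases. The study's methods describe a filter in its DPAC pipeline on sites followed by A-rich genomic sequence (over 12 A in 20 bases). Whether it was applied to these counts was not tested. Overlapping features can share reads. Groups were taken from the library titles. Counts were compared with the quasi-likelihood test of edgeR 4.0.16 (R 4.3.3), with TMM factors and library sizes of each table and a mean above 2 CPM. Knockdown was fitted within each line on 3 control and 6 knockdown libraries, control lines on 9 controls, and line-by-knockdown terms on 27 libraries. Ratios between tables were fitted as an interaction of table and knockdown. Depth was 1725670 to 6549383 reads in 3′ UTRs, 936970 to 3580071 in introns and 603941 to 1889628 in CDS. Intervals are exact, at 95% and cover counting error only.

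Alternatives were DESeq2 1.42.0, its size factors (RLE), no filter, a filter on every library, summed library sizes, each shRNA alone, a replicate block, each library left out and, chosen after seeing the data, the sum without CDS. The fits were tested on simulated data. All 7 genes were named, with the 2 nearest patterns for each and, of the other factors, those called in the same direction in at least 2 lines in the same fit. PECAM1 was listed as a marker and was not analysed here. The genes, lists and tests were chosen with earlier results of these data known.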

Additional observations from a re-analysis of the deposited data

How the results depend on the processing

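The rise of CSTF3 in the 10 kb table was called in each line under all 7 alternatives that tested it and all 9 fits without 1 library, but a filter above 2 CPM in every library removed it from the test. Numbers of the 7 genes called moved as follows. With CPSF1 sh1 alone they were 1 in the 10 kb table of LNCaP95 and 22Rv1 (from 2), 1 in the 10 kb to 3′ UTR ratio of LNCaP and 22Rv1 (from 2), 0 in the LNCaP95 3′ UTR table (from 2), 0 in 22Rv1 CDS (from 1), 1 in LNCaP95 introns (from 2) and 0 for the LNCaP95 intron ratio (from 1). With CPSF1 sh2 alone they were 1 in LNCaP summed reads (from 3), 0 in the LNCaP 3′ UTR table (from 2), 1 in LNCaP95 introns and 0 for its intron ratio. With the filter on every library they were 1, 0 and 1 in the 10 kb table of LNCaP, LNCaP95 and 22Rv1, 1, 0 and 1 for its ratio, and 1 in the LNCaP 3′ UTR table. With summed library sizes they were 4 and 6 in the 10 kb table of LNCaP and LNCaP95, 4 for the LNCaP95 10 kb ratio (from 1), 1 and 1 in the 3′ UTR table of LNCaP and LNCaP95, 0 in 22Rv1 CDS, 1 and 1 in introns of LNCaP (from 0) and LNCaP95, and 0 for the LNCaP95 intron ratio. Summed sizes also gave 1 line-by-knockdown call in the 10 kb table (CPSF6, LNCaP95 against LNCaP) and 1 in introns (CPSF7, 22Rv1 against LNCaP). DESeq2 and RLE factors each gave 1 in the LNCaP95 10 kb table, RLE factors 1 line-by-knockdown call in introns (CSTF3, 22Rv1 against LNCaP95), and no filter 2 for the LNCaP95 10 kb ratio and 0 for its intron ratio. The cause was not tested.

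Without 1 library, the numbers called in LNCaP, LNCaP95 and 22Rv1 ranged from 1 to 3, 3 to 4 and 0 to 1 in summed reads, from 2 to 3, 1 to 2 and 1 to 3 in the 10 kb table, from 1 to 2 in each line for its ratio, from 0 to 2, 0 to 2 and 0 to 0 in the 3′ UTR table, from 1 to 1, 1 to 1 and 0 to 1 in CDS, and from 0 to 1, 1 to 2 and 0 to 0 in introns, and from 0 to 2 for the LNCaP95 intron ratio. Between control lines they ranged from 1 to 2 (22Rv1 against LNCaP), 2 to 4 (22Rv1 against LNCaP95) and 0 to 2 (LNCaP95 against LNCaP).

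The correlation of same-numbered libraries was over 0.1 in 3 of 9 pairs in each line (from -0.26 to 0.18 for LNCaP, -0.21 to 0.17 for LNCaP95 and -0.14 to 0.39 for 22Rv1). In 22Rv1 these were the 3 pairs of CTRL sh with CPSF1 sh1 (0.39, 0.25 and 0.12). The labels name no shared batch, so the pairing was not taken as given, and CPSF1 sh1 alone was not fitted with a block. With the replicate block 0 genes were called in the LNCaP 3′ UTR table (from 2; CSTF3 0.56, adjusted p = 0.0689, and NUDT21 -0.41, adjusted p = 0.0537), the LNCaP call of NUDT21 in summed reads was lost (-0.34, adjusted p = 0.058), and 2 (CPSF6 and CSTF1) were called between LNCaP95 and LNCaP controls (from 0). Low counts limit the 10 kb and CDS values, and positions within a table row could not be resolved.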
